A study of Proteus anguinus with 14 samples.

Results

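Brain and heart of the olm (Proteus anguinus), a blind cave salamander that keeps its larval form for life, were compared directly as excitable organs, with the other organs of the series left aside. The comparison rests on 4 of the 14 samples: the brain columns of the animals p4 and p6 and the heart columns of the same animals, chosen by their labels and paired by the animal number. The animals were wild olms held singly in darkness and fed with tubifex. They were uninfected controls of an infection experiment, and their organs were kept in RNAlater; no treatment or allele separates the groups, and age and sex are not given in the sources used here. Poly(A)-selected RNA was sequenced, and the deposited value of each assembled gene is TPM, a share of transcripts corrected for their length, which sums to 1000000 in each sample. Titles and library names give the organ used here; the tissue field of the labels calls both heart samples gut. A supplementary sample list gives the second heart as animal p5 where the title says p6, so that whether this pair is 1 animal rests on the title.

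Neurons and heart muscle cells both live by changes of membrane voltage. A neuron opens fast sodium channels for its spike, restores the resting voltage through potassium channels, and passes the signal on by calcium-triggered release of transmitter from vesicles. A heart muscle cell uses its own set of channels to couple each spike to calcium release and contraction, is joined to its neighbours by gap junctions, and burns fatty acids and lactate in densely packed mitochondria. Nerves of the autonomic system end in the heart, whose ganglia lie in its wall, so that neuron transcripts are part of the tissue.

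To make the columns comparable, each was divided by a size factor, the median over 15338 genes (those above 0 in every column) of a gene's value divided by its geometric mean; the quotients are called normalized TPM below. The size factors were 1.34 and 1.30 in the brain columns and 0.895 and 0.647 in the heart columns. Of the 18924 genes in the table, 10313 carry a symbol and 15400 reached 1 TPM in at least 2 of the 4 columns and were tested with limma on log2(normalized TPM + 1), with the animal as a block. Genes whose adjusted p lay below 0.05 were called where the log2 fold change also went beyond 1 in either direction. Fold changes are brain minus heart on that scale, which understates the change of low genes (n = 2 samples per organ). The value after ± is the standard error of the fit. Its variance is mostly shared across genes, so it is not the spread of a gene's own samples. Wherever 2 values are given for an organ, p4 comes first and p6 second. The p-values rest on how far the brain minus heart differences of the 2 animals disagree, with a variance mostly shared across genes. Columns of the organs can therefore overlap in a called gene. An exact permutation test of 2 against 2 that ignores the pairing could not go below 0.333, and keeping the pairs leaves fewer arrangements.

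The labels held against defining markers. SYT1, the calcium sensor of synaptic vesicles, stood at 727 and 511 normalized TPM in brain and at 32.9 and 15.6 in heart (log2 fold change 4.69 ± 0.26, adjusted p = 0.00127). TNNT2, the cardiac troponin T, stood at 12.4 and 16.0 in brain and at 26720.2 and 16450.3 in heart (−10.44 ± 0.32, adjusted p = 0.000816). The neuronal RNA-binding protein gene ELAVL4 followed the brain samples, at 159 and 153 against 16.2 and 15.0. The atrial light chain MYL7 and the cardiac transcription factor NKX2-5 followed the hearts, at 932 and 210.3 and at 543 and 390.2 normalized TPM in the hearts against no more than 2.11 in any brain column. Of the other markers fixed for the 2 organs, SNAP25, STMN2 and MYH6 have no gene of that symbol in the table.

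Across all genes tested, 1955 (12.7%) were higher in brain and 1407 (9.14%) higher in heart, 21.8% in all. Without the animal block the counts were 1172 (7.61%) and 536 (3.48%), of which 1165 and 536 had been called with it. Both brain columns lay above both heart columns for 33.9% of the genes tested, and both heart columns above both brain columns for 29.1%. When 1 assembled gene stood for each symbol, 952 of 6634 symbols (14.4%) were higher in brain and 734 (11.1%) higher in heart. The hearts were the less varied libraries: 13413 and 12238 genes reached 1 TPM there against 15252 and 15518 in the brains, and the 10 most abundant genes held 30.5% and 35.8% of TPM against 12.8% and 20.9%. In bulk tissue, fewer cells of a type and less RNA per cell cannot be told apart.

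**Figure D1:**
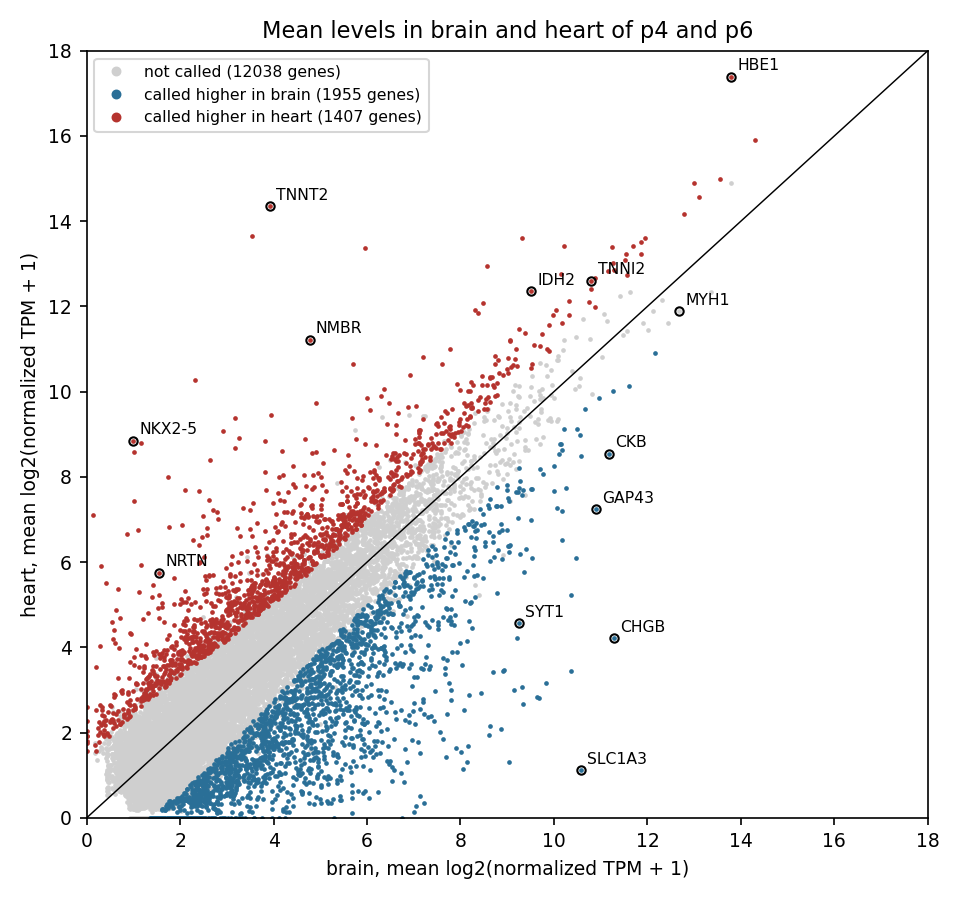
Mean log2(normalized TPM + 1) of each gene tested in the 2 brain columns (x axis) and the 2 heart columns (y axis), with called genes in colour and the line of equal level drawn. SLC1A3 and CHGB lie far on the brain side and TNNT2 and NMBR far on the heart side, while the muscle myosin gene MYH1 lies near the line.

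The 8 genes of the largest difference on the brain side included a glial transporter, granins and a receptor of nerve endings. SLC1A3, the glutamate transporter of astrocytes, stood at 1938 and 1211 normalized TPM in brain and at 1.08 and 1.26 in heart (9.46 ± 0.30, adjusted p = 0.000816). CHGB, a granin that packs secretory granules, stood at 3068 and 2008 against 17.0 and 18.3 (7.05 ± 0.27), and its relative SCG2 at 1722 and 1001 against 11.6 and 8.54 (6.91 ± 0.25). CNR1, the cannabinoid receptor of nerve endings, was listed at 345 and 203 in brain and at 1.06 and 1.38 in heart. The membrane glycoprotein gene GPM6A, the cerebellin CBLN4, C1QTNF4 and the amino acid transporter SLC38A4 completed the list, with log2 fold changes from 6.85 to 7.75. That both brain values lay above both heart values was a condition for this list. Every heart value was below 20.

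On the heart side the thin filament genes led. TNNI3, the cardiac troponin I, stood at 18.3 and 6.06 in brain and at 15243 and 11033 in heart (−10.12 ± 0.31). The LIM domain gene FHL2, which is abundant in heart muscle, stood at 2.48 and 6.05 against 1534 and 987 (−7.96 ± 0.43), and NKX2-5 at 2.11 and 0.279 against 543 and 390.2 (−7.85 ± 0.32). The list of heart transcription factors and hormones that holds NKX2-5 went both ways (median 0.48): of 11 genes tested, NKX2-5 and MYOCD were higher in heart, and SRF, SHOX2, HEY1 and NPPC were higher in brain, with log2 fold changes from 1.39 to 1.88 (SRF and SHOX2 lost the call without the block, adjusted p = 0.0831 and 0.0558). NMBR, whose symbol is that of the receptor for the peptide neuromedin B, was among the largest differences towards heart, at 22.6 and 30.6 against 3283 and 1732 normalized TPM (−6.45 ± 0.36, adjusted p = 0.00141). MLIP, a lamin-interacting gene of muscle, stood at 0.193 and 0 against 276 and 66.8, and ASB18 at 1.31 and 0.782 against 243 and 123. The p4 heart was the higher of the hearts in TNNI3, FHL2, NKX2-5, NMBR, MLIP and ASB18, and in MLIP and MYL7 by more than 4 times.

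Of 258 channel, pump and calcium handling symbols on the lists, 119 were in the table and 94 were tested. Of these, 32 were higher in brain and 7 higher in heart, against 14.4% and 11.1% of all symbols. The other 55 were not called. The median log2 fold change was 0.59 against 0.05 over all genes tested. Without the block 19 of the 32 and 3 of the 7 kept the call. Sodium and voltage-gated potassium channel genes made up 15 of the 32 on the brain side, and neither list held a member called higher in heart.

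Voltage-gated sodium channels carry the upstroke of the spike. Of the 7 tested genes of this list, 4 were higher in brain, against 14.4% of all symbols. SCN2A, a pore-forming subunit of central neurons, stood at 59.0 and 26.9 in brain and 1.10 and 0.648 in heart (4.46 ± 0.37, adjusted p = 0.00314). The accessory subunit gene SCN2B was the most abundant of the list in both organs, at 715 and 387 against 204 and 145 (1.61 ± 0.24, adjusted p = 0.0126, 0.0602 without the block). SCN3A and SCN10A were also called towards brain, and lost the call without the block (adjusted p = 0.0931 and 0.0687). Apart from SCN2B, no tested sodium channel gene reached 6 normalized TPM in either heart.

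Potassium channel genes end the spike and hold the resting voltage. Of 22 voltage- and calcium-gated members tested, 11 were higher in brain and none in heart (median 1.66). Over all symbols the shares were 14.4% and 11.1%. KCNS2, a silent subunit that joins other channels, stood at 152 and 87.3 against 1.83 and 1.14 (5.56 ± 0.30, adjusted p = 0.00127), and KCNA1, a channel of axons, at 37.9 and 23.5 against 1.09 and 1.57 (3.74 ± 0.39). KCNA5 and KCNH2, which carry repolarizing currents in mammalian atria and ventricles, also lay on the brain side here. KCNA5 stood at 27.4 and 19.5 in brain and 1.83 and 4.16 in heart (2.66 ± 0.43), and KCNH2 at 20.4 and 4.88 against 0.535 and 0.488 (2.89 ± 0.54). KCNIP2, whose product governs the transient outward current of the mammalian heart, stood at 53.1 and 31.3 against 3.95 and 4.42 (3.01 ± 0.35). In all 3 genes both brain columns lay above both heart columns.

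Of 11 inward rectifier and leak channel genes tested, 5 were higher in brain and 1 in heart, against 14.4% and 11.1% of all symbols. KCNJ3, which forms the channel opened by acetylcholine in atria and by many transmitters in neurons, stood at 39.4 and 22.3 in brain and 1.14 and 0.845 in heart (3.95 ± 0.36, adjusted p = 0.00382). KCNJ13 stood at 18.1 and 19.9 against 0.0934 and 0.110, and the leak channel gene KCNK15 at 39.3 and 27.6 against 0.808 and 1.08. The member towards heart was KCNJ11, the pore of the ATP-sensitive channel, at 24.8 and 117 in brain and 114 and 544 in heart (−2.18 ± 0.23, adjusted p = 0.00546). Its p6 brain value exceeded its p4 heart value, it was higher in p6 than in p4 in both organs, as were most skeletal muscle genes, and its adjusted p was 0.176 without the block.

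Of 12 calcium channel genes tested, 2 were higher in brain and 2 in heart, shares close to those of all symbols (14.4% and 11.1%), and of 11 genes of calcium release and transport 5 were higher in brain and 1 in heart. CACNB3 and CACNG4, accessory subunits, were higher in brain (adjusted p = 0.0568 and 0.0253 without the block), and CACNA1B, whose symbol is that of the pore of N-type channels at nerve endings, was higher in heart, at 0.800 and 1.27 against 8.56 and 18.8 (−2.77 ± 0.39, adjusted p = 0.0110). This symbol is carried by 3 assembled genes, and the values are those of the most abundant. CACNA1C, the L-type pore that triggers each heartbeat, was not called, at 27.0 and 30.1 in brain and 15.7 and 47.2 in heart. CACNG6 was called towards heart at 2.98 and 52.6 against 24.7 and 196 but moved with the p6 columns (adjusted p = 0.309 without the block).

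The plasma membrane calcium pumps ATP2B3 (217 and 164 against 2.86 and 3.29; 5.54 ± 0.29) and ATP2B2 (78.7 and 53.7 against 4.20 and 2.18; 4.02 ± 0.30) were higher in brain. ATP2A2, which refills the calcium store of heart muscle in mammals and serves neurons as well, stood at 265 and 224 in brain and 85.2 and 136 in heart (1.17 ± 0.30, adjusted p = 0.0448, 0.0849 without the block). Of the calcium release channels, RYR3 was higher in brain at 36.9 and 9.50 against 1.73 and 1.94 (2.82 ± 0.54). RYR1, the release channel of skeletal muscle, was also called towards brain, at 6.91 and 20.4 against 2.03 and 5.83, was higher in the p6 than in the p4 column of both organs, and had an adjusted p of 0.167 without the block. JPH2, which ties the store to the surface membrane in heart muscle, was higher in heart at 57.8 and 62.6 against 94.8 and 178 (−1.10 ± 0.29, adjusted p = 0.0485, 0.117 without the block).

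Of 6 gap junction genes tested, 2 were higher in brain and 1 in heart, and of 10 chloride channel genes 1 and 0. Of 11 HCN, TRP and mechanosensitive channel genes, 1 was higher in brain and 2 in heart, against 14.4% and 11.1% of all symbols. TRPC6, a cation channel opened by lipid messengers, stood at 15.8 and 10.9 in brain and 171 and 64.7 in heart (−2.91 ± 0.32, adjusted p = 0.00580), while its relative TRPC4 went the other way at 15.0 and 20.3 against 0.577 and 0.677 (3.50 ± 0.37). GJC1, a connexin of the conduction system in mammals, was higher in heart at 3.44 and 3.49 against 13.0 and 11.0 (−1.54 ± 0.34, adjusted p = 0.0323). TRPV6 stood at 0.690 and 2.74 against 6.46 and 9.75 and lost the call without the block (adjusted p = 0.0707). ANO1, a calcium-activated chloride channel, was higher in brain at 29.0 and 22.5 against 1.77 and 7.06 (2.49 ± 0.51).

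**Figure D2:**
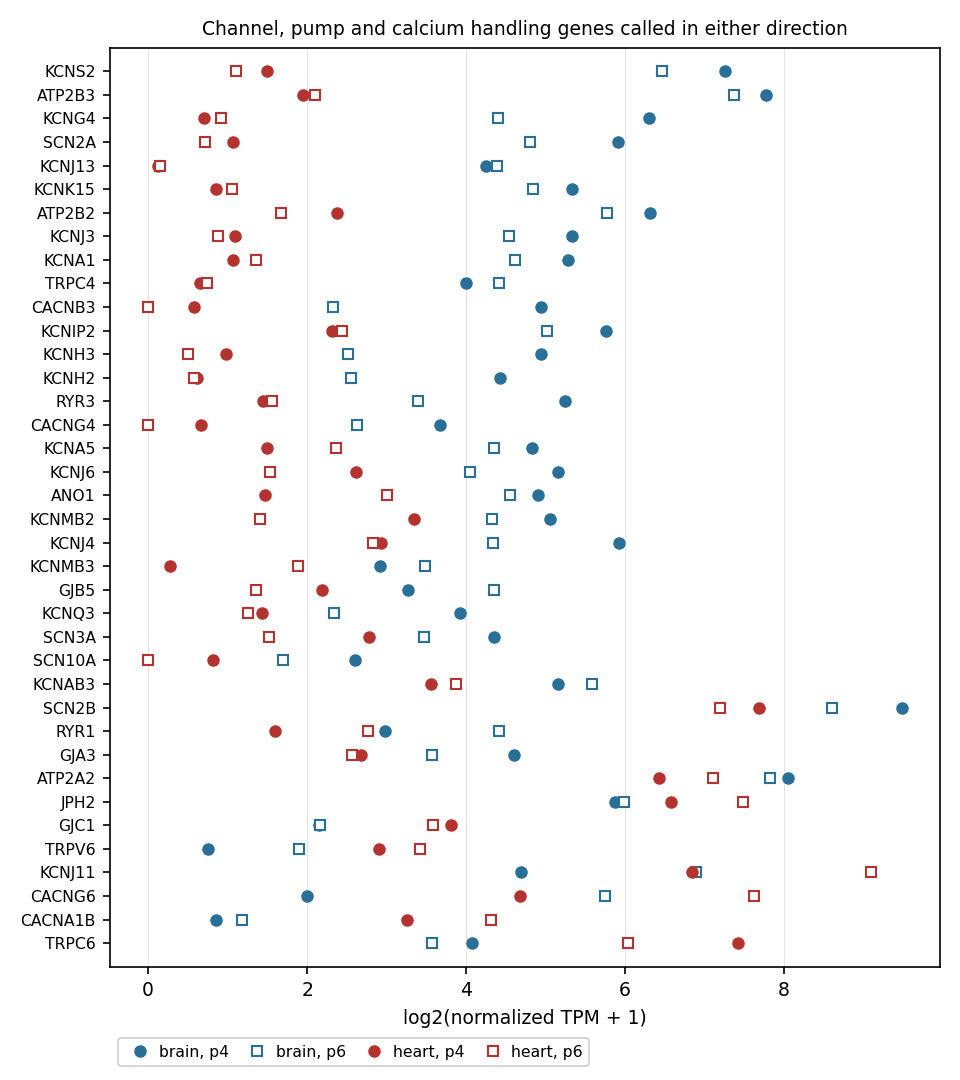
Called channel, pump and calcium handling genes (38 of 39), in either direction, ordered by log2 fold change, with log2(normalized TPM + 1) on the x axis and 1 point for each of the 4 columns (blue brain, red heart, filled p4, open p6). In KCNJ11 and CACNG6 the p6 point of each organ lies to the right of its p4 point, and the p6 brain reaches or passes the p4 heart.

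The transmitter genes had the highest median of the 4 gene groups. Of 240 symbols listed, 117 were in the table and 101 were tested. Of these, 50 were higher in brain and 7 in heart, against 14.4% and 11.1% of all symbols. The other 44 were not called, and the median was 1.65. Without the block 45 and 3 kept the call, and in each animal alone the median was 2.02 (p4) and 1.50 (p6).

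Genes of the inhibitory transmitters GABA and glycine were 10 of 15 higher in brain and none higher in heart (median 3.01). Over all symbols the shares were 14.4% and 11.1%. GAD2, which makes GABA, stood at 351 and 338 against 5.63 and 7.76 (5.50 ± 0.27, adjusted p = 0.00106). The receptor subunit GABRA4 stood at 251 and 153 against 2.09 and 3.14, and the glycine receptor subunit GLRB at 255 and 164 against 0.970 and 2.70. In these genes both brain values were above 150 and both heart values under 10. GPHN, the anchor of inhibitory receptors, which has a general role in cofactor synthesis, was not called at 124 and 127 against 107 and 196.

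Among glutamate genes, the kainate receptor subunit GRIK2 was higher in brain at 74.3 and 57.8 against 1.23 and 1.10 (4.94 ± 0.32, adjusted p = 0.00199), as were GRIK3, GRM2 and the obligatory NMDA receptor subunit GRIN1. GLUL, which turns glutamate into glutamine in astrocytes and many other cells, was not called, at 224 and 202 against 263 and 184 (−0.05 ± 0.24, adjusted p = 0.898). GRIN3B, whose symbol is that of a glutamate receptor subunit, was called towards heart. It stood at 39.2 and 238 in brain and 216 and 1223 in heart, moved with the p6 columns, and had an adjusted p of 0.186 without the block.

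Acetylcholine is the transmitter of the vagus in the heart and of motor nerves in muscle. Of 11 acetylcholine genes tested, 2 were higher in brain, 2 in heart and 7 were not called (median 0.02). Over all symbols the shares were 14.4% and 11.1%. The neuronal receptor subunits CHRNB2 (44.1 and 27.9 against 0.0582 and 0.547; 4.82 ± 0.43) and CHRNA7 (42.2 and 29.1 against 2.77 and 2.24; 3.37 ± 0.32) were higher in brain. CHRNB1, the beta subunit of the muscle receptor, was called towards heart at 9.18 and 55.0 against 105 and 256 (−2.79 ± 0.35, adjusted p = 0.00823, 0.0830 without the block) and was higher in p6 than in p4 in both organs, as was CHRNA1 of the same receptor. CHAT, which makes acetylcholine, was not called, at 3.10 and 5.99 in brain and 6.52 and 2.09 in heart. BCHE, which splits choline esters, was called towards heart at 0.676 and 18.0 against 6.08 and 38.1, again with the p6 column the higher in each organ and an adjusted p of 0.440 without the block.

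Of 16 tested genes of monoamines, adrenaline and histamine, 8 were higher in brain and 2 in heart, against 14.4% and 11.1% of all symbols. The alpha-2 adrenoceptors, which curb transmitter release, were all on the brain side: ADRA2A at 43.7 and 47.2 against 5.68 and 8.93, ADRA2C at 51.4 and 31.5 against 1.74 and 1.92, and ADRA2B at 9.41 and 16.2 with both hearts listed at 0. The beta adrenoceptor gene ADRB3 was higher in heart, at 2.14 and 4.51 against 17.4 and 22.5 (−2.32 ± 0.34, adjusted p = 0.0122), and so was the histamine receptor gene HRH2, which raises beating force in mammals, at 0.832 and 0.661 against 4.45 and 3.92 (−1.57 ± 0.37, adjusted p = 0.0371). Both kept the call without the block (0.0280 and 0.0452). TH, the first enzyme of noradrenaline synthesis, was near 1 in every column, at 1.20 and 1.62 in brain and 0.742 and 0.436 in heart.

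Vesicle release genes move, dock and fuse transmitter vesicles. Of 35 tested, 15 were higher in brain and 1 in heart, against 14.4% and 11.1% of all symbols. VAMP2, the vesicle SNARE, stood at 1146 and 713 against 10.4 and 6.05 (6.66 ± 0.24, adjusted p = 0.000816), SYP, a vesicle membrane protein, at 1589 and 1102 against 49.0 and 26.9 (5.15 ± 0.24), and CPLX1, the clamp of fusion, at 778 and 445 against 22.0 and 14.1 (4.98 ± 0.24). SNCB, a synuclein of nerve endings, had the highest heart level of the genes of this list called towards brain, 194 and 82.9, against 791 and 671 in brain (2.51 ± 0.31). SYPL1, the relative of SYP used outside neurons, went the other way at 62.1 and 141 against 312 and 451 (−1.99 ± 0.26, adjusted p = 0.00952).

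Neuropeptide and granin genes were higher in brain in 10 of 14 cases and in heart in none (median 3.96). Over all symbols the shares were 14.4% and 11.1%. PENK, the enkephalin precursor, stood at 774 and 809.9 against 5.16 and 7.32 (6.79 ± 0.25), TRH, the releasing hormone of the thyroid axis, at 292 and 273 against 1.67 and 1.28 (6.84 ± 0.27), and NTS, neurotensin, at 249.7 and 261 against 1.14 and 2.93 (6.47 ± 0.32). For these 3 the brain columns of p4 and p6 were nearly equal. CPE, which trims peptide precursors, was the most abundant of the list in heart at 77.2 and 58.7, against 1642 and 1239 in brain (4.38 ± 0.23).

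**Figure D3:**
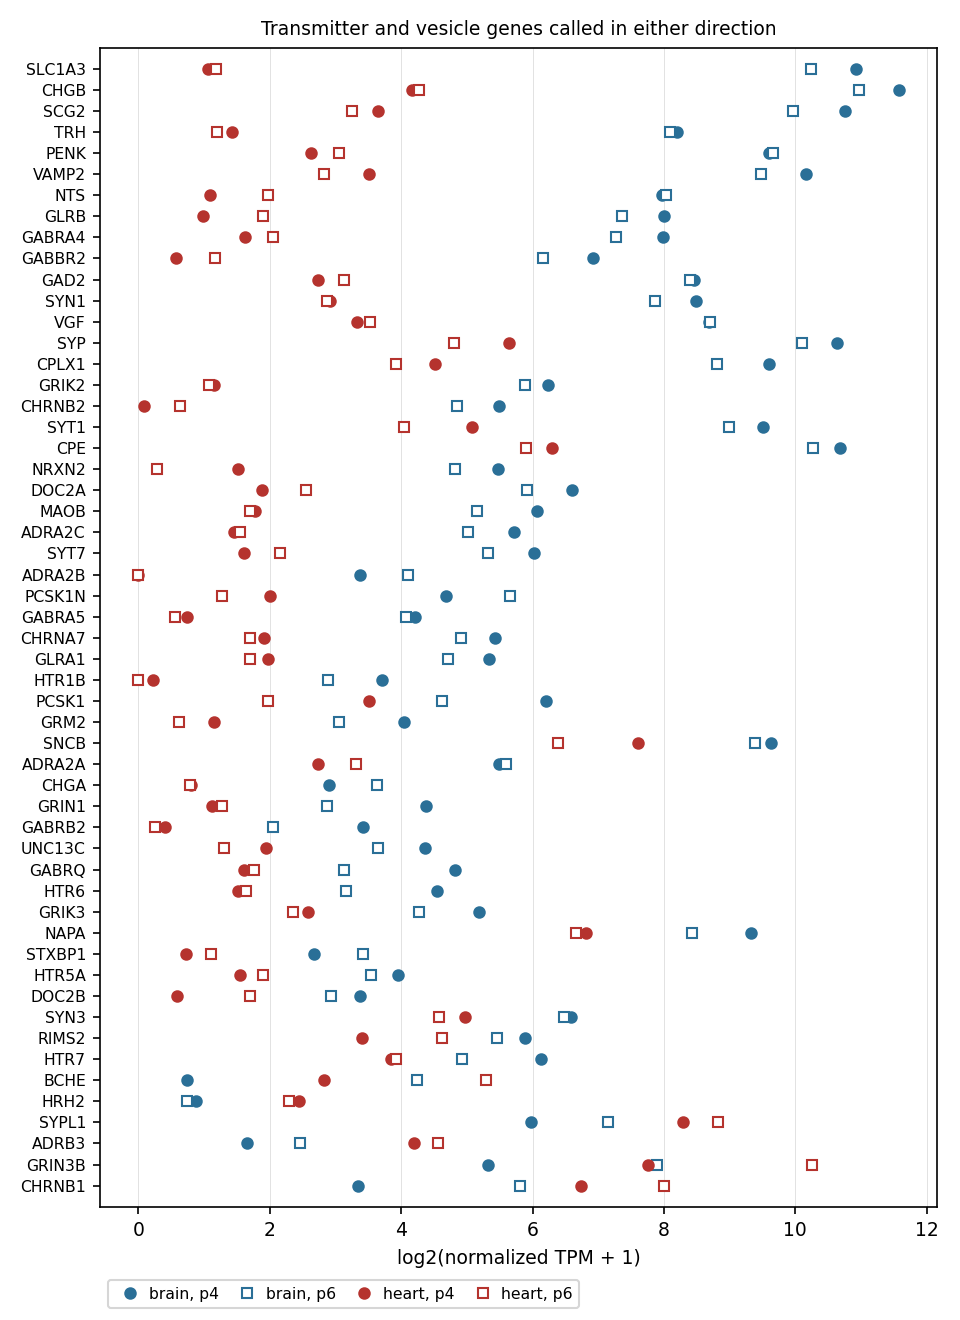
Called transmitter and vesicle genes (54 of 57), in either direction, ordered by log2 fold change, with log2(normalized TPM + 1) on the x axis and 1 point for each of the 4 columns (blue brain, red heart, filled p4, open p6). For SLC1A3 at the top both hearts lie near 1 normalized TPM, while at the bottom CHRNB1, GRIN3B and BCHE are higher in the open p6 point of each organ.

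Energy metabolism went towards heart. Of 251 symbols listed, 116 were in the table and 105 were tested. Of these, 33 were higher in heart and 4 in brain, against 11.1% and 14.4% of all symbols. The other 68 were not called, and the median was −0.72. Without the block 21 and 4 kept the call. The median was −1.32 in p4 and −0.22 in p6. Of the 31 tested genes of the respiratory chain and ATP synthase, with the carriers on that list, 16 were higher in heart and none in brain (median −1.40).

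Complex I feeds electrons from NADH into the chain, and 7 of its 14 tested genes were higher in heart, against 11.1% of all symbols. Of these 7, NDUFB6, NDUFS4, NDUFS5 and NDUFV2 lost the call without the block. NDUFV1, a catalytic core subunit, stood at 215 and 233 in brain and 873 and 693 in heart (−1.79 ± 0.24, adjusted p = 0.0101), and NDUFS6 at 121 and 137 against 395 and 571 (−1.87 ± 0.24). All 3 tested genes of complex IV, which passes electrons to oxygen, were higher in heart: COX5A at 417 and 679.6 against 1848 and 2915 (−2.12 ± 0.23), COX4I1 at 359.7 and 555 against 1186 and 2437 (−1.93 ± 0.25), and COX5B at 767 and 961 against 2284 and 3007 (−1.61 ± 0.23). Without the block COX5A kept the call (adjusted p = 0.0376), while COX4I1 and COX5B did not (0.0558 and 0.0521). Of the ATP synthase itself, ATP5B, the catalytic beta subunit, stood at 1077 and 1498 against 4392 and 4539 (−1.81 ± 0.26) and ATP5O at 458 and 811 against 2188 and 3653 (−2.21 ± 0.23). In each of these genes both hearts lay above both brains, and the hearts were 3.06 to 4.60 times the brains in the ratio of means.

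Of 14 tested genes of pyruvate oxidation and the citric acid cycle, 5 were higher in heart, none in brain and 9 were not called. Their median was −1.82 in p4 and −0.08 in p6. Over all symbols 11.1% were higher in heart and 14.4% in brain. MPC1, a subunit of the pyruvate carrier, stood at 425 and 676 against 2097 and 2723 (−2.15 ± 0.24, adjusted p = 0.00606), and PDHB of pyruvate dehydrogenase at 233 and 273 against 1009.7 and 1082 (−2.05 ± 0.23). IDH2, the mitochondrial NADP-linked isocitrate dehydrogenase, had the largest change of its list at 545 and 981 against 6500.3 and 4216 (−2.84 ± 0.39, adjusted p = 0.0105). PDK2, a kinase that switches pyruvate dehydrogenase off, was higher in heart as well, at 19.7 and 19.8 against 109.5 and 92.7 (−2.30 ± 0.26). Of 18 fatty acid oxidation genes tested, 6 were higher in heart and none in brain, beside the same shares of all symbols. ACADM, the medium-chain dehydrogenase of fatty acid breakdown, stood at 112 and 123 against 993 and 644 (−2.76 ± 0.28, adjusted p = 0.00465), and PPARGC1A, a coactivator of mitochondrial genes, at 20.8 and 20.9 against 60.5 and 49.0 (−1.34 ± 0.27).

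Genes with the symbols of isoforms that differ between organs in mammals did not always split the same way here. Of the carnitine palmitoyltransferase symbols, only CPT1C, whose symbol is that of the brain form in mammals, was called. It lay towards heart at 1.46 and 3.39 against 16.7 and 12.4 (−2.23 ± 0.43, adjusted p = 0.0228). Whether this assembled gene corresponds to mammalian CPT1C was not tested. CPT1B, the muscle form in mammals, was not called at 3.23 and 5.02 against 3.57 and 4.63. CKB, the brain creatine kinase, was higher in brain at 2363 and 2246 against 381 and 366 (2.62 ± 0.23, adjusted p = 0.00354), as was the mitochondrial form CKMT1B at 653 and 643 against 6.67 and 4.35 (6.66 ± 0.27). CKM, the muscle creatine kinase, was not called: the p4 brain at 23.0 and the p6 brain at 592 stood far apart, and the hearts at 684 and 727. SLC2A1, the glucose transporter of the blood-brain barrier, was higher in brain at 223 and 174 against 33.3 and 19.4 (2.91 ± 0.26). CAMK2B, a calcium-dependent kinase of neurons, was higher in brain at 575 and 342 against 71.1 and 82.9 (2.52 ± 0.31).

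Of 14 glycolysis and glucose uptake genes tested, SLC2A1 was higher in brain, TPI1 higher in heart and 12 were not called, against 14.4% and 11.1% of all symbols called in these directions. TPI1, triosephosphate isomerase, stood at 2860.4 and 5486 against 10837 and 14206 (−1.65 ± 0.29, adjusted p = 0.0175, 0.105 without the block). PFKP, a phosphofructokinase, was not called at 835 and 607 against 1388 and 646. PFKM, the muscle form, followed the animals more than the organs, at 94.2 and 1066 in brain and 339.9 and 1548 in heart. The assembled genes that carry the symbols GAPDH, LDHB and ENO3 varied widely between the columns of 1 organ, GAPDH from 50.2 to 467 in brain and from 142 to 279.9 in heart, and none was called.

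The energy genes were also counted by level, in a split at a mean of 30 normalized TPM over the 4 columns that was made after the values were seen. Of the 51 tested genes at or above 30, 30 were higher in heart and 3 in brain, with a median of −1.66 in p4 and −1.46 in p6. Of the 54 below 30, 3 were higher in heart and 1 in brain, and their median was −0.94 in p4 and 0.26 in p6. Over all symbols tested, 504 of 2187 at or above 30 and 230 of 4447 below it were higher in heart. The heart values enter the split: of the 51 genes, 4 had a mean under 30 in brain, PDK2 and PPARGC1A among them, and 3 a mean under 30 in heart. Of the 47 at or above 30 in brain, 27 were higher in heart and 3 in brain. The difference between the classes was not tested.

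**Figure D4:**
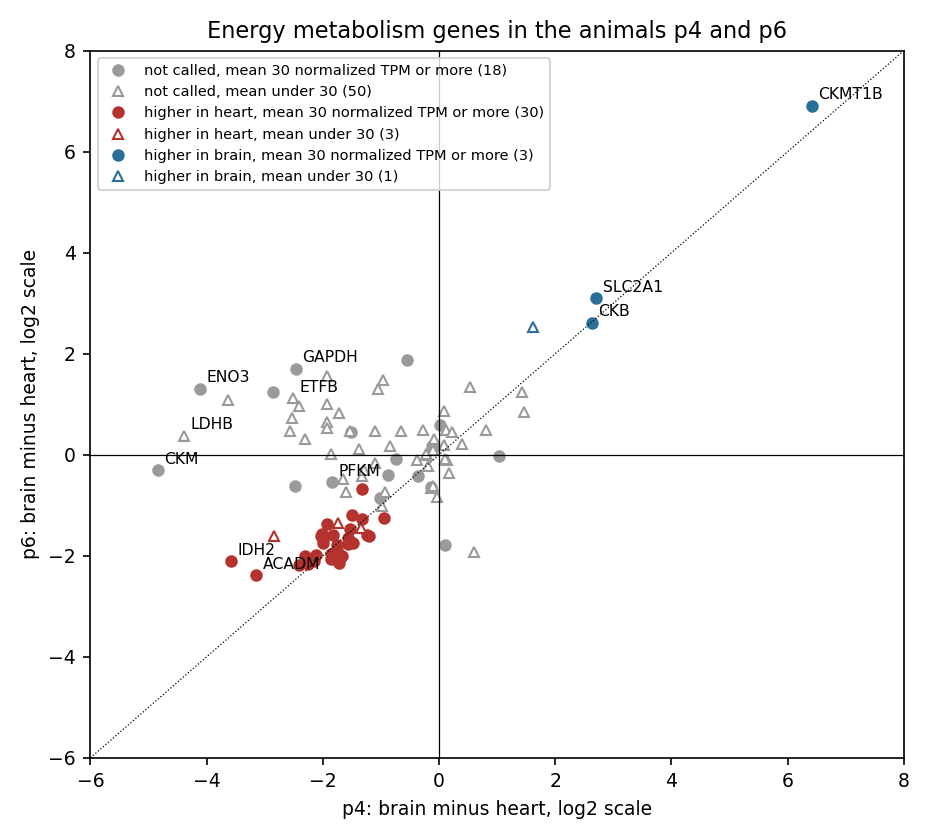
Brain minus heart on the log2 scale in p4 (x axis) and in p6 (y axis) for the 105 energy metabolism genes tested, with colour for the call and shape for the mean level (circles 30 normalized TPM or more, triangles under 30). The 33 genes called towards heart lie in the lower left near the dotted line of equal difference, CKB, SLC2A1 and CKMT1B lie in the upper right, and ENO3 and GAPDH lie towards heart in p4 and towards brain in p6.

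Nerve genes differed widely in their level in heart. Of 115 listed symbols, 49 were in the table and 40 were tested. Of these, 16 were higher in brain and 2 in heart, against 14.4% and 11.1% of all symbols. The other 22 were not called, and the median was 1.05. At 1 normalized TPM or more in both hearts stood 28 of the 40, against 80.4% of all genes tested, counted there by assembled gene and not by symbol. GAP43, the growth protein of axon endings, had the second highest mean level in heart of these genes, after SPTBN4, at 177 and 129 normalized TPM against 2121 and 1725 in brain (3.65 ± 0.23, adjusted p = 0.00186). Its mean in heart was 7.96% of the mean in brain. For ELAVL4 the heart mean was 9.98% of the brain mean, for SYT1 3.91%, for SYP 2.82%, for VAMP2 0.885% and for CHGB 0.697%.

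Higher in heart were 2 of the 40 nerve genes tested, against 11.1% of all symbols. NRTN, neurturin, a growth factor that parasympathetic neurons need, stood at 1.33 and 2.64 in brain and 72.2 and 38.6 in heart (−4.21 ± 0.45, adjusted p = 0.00545, 0.00592 without the block). RET, the signalling receptor for neurturin, was not called: it stood at 23.8 and 17.5 in the hearts and at 3.68 and 18.5 in the brains. SPTBN4, a spectrin of the axon initial segment and nodes, stood at 10.2 and 42.0 in brain and 256 and 185 in heart (−3.31 ± 0.56, adjusted p = 0.0165), the values being those of the more abundant of the 2 assembled genes with this symbol. ANK3, which anchors channels at the same sites and is used outside neurons too, was not called, at 85.6 and 52.6 against 114 and 57.0.

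Of the myelin genes, MBP stood at 68.4 and 50.7 in brain and 11.7 and 10.6 in heart (2.30 ± 0.28, adjusted p = 0.00743), and MOG, of central myelin, at 51.2 and 53.7 against 10.8 and 4.23 (2.77 ± 0.39, adjusted p = 0.0107). Of 10 Schwann cell and myelin genes tested, 2 were higher in brain and none in heart, against 14.4% and 11.1% of all symbols. The 2 were MBP and L1CAM, which is also on the list of neuron and axon genes. On the glia list 4 of 13 tested genes were higher in brain and none in heart (median 0.47), beside the same shares of all symbols. The list held 0.326% and 0.217% of TPM in brain against 0.0369% and 0.0196% in heart. Most of that sum was SLC1A3: the 12 other genes tested summed to 492 and 456 normalized TPM in brain and 410.3 and 302 in heart. The part of glia in the myelin genes was not tested.

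**Figure D5:**
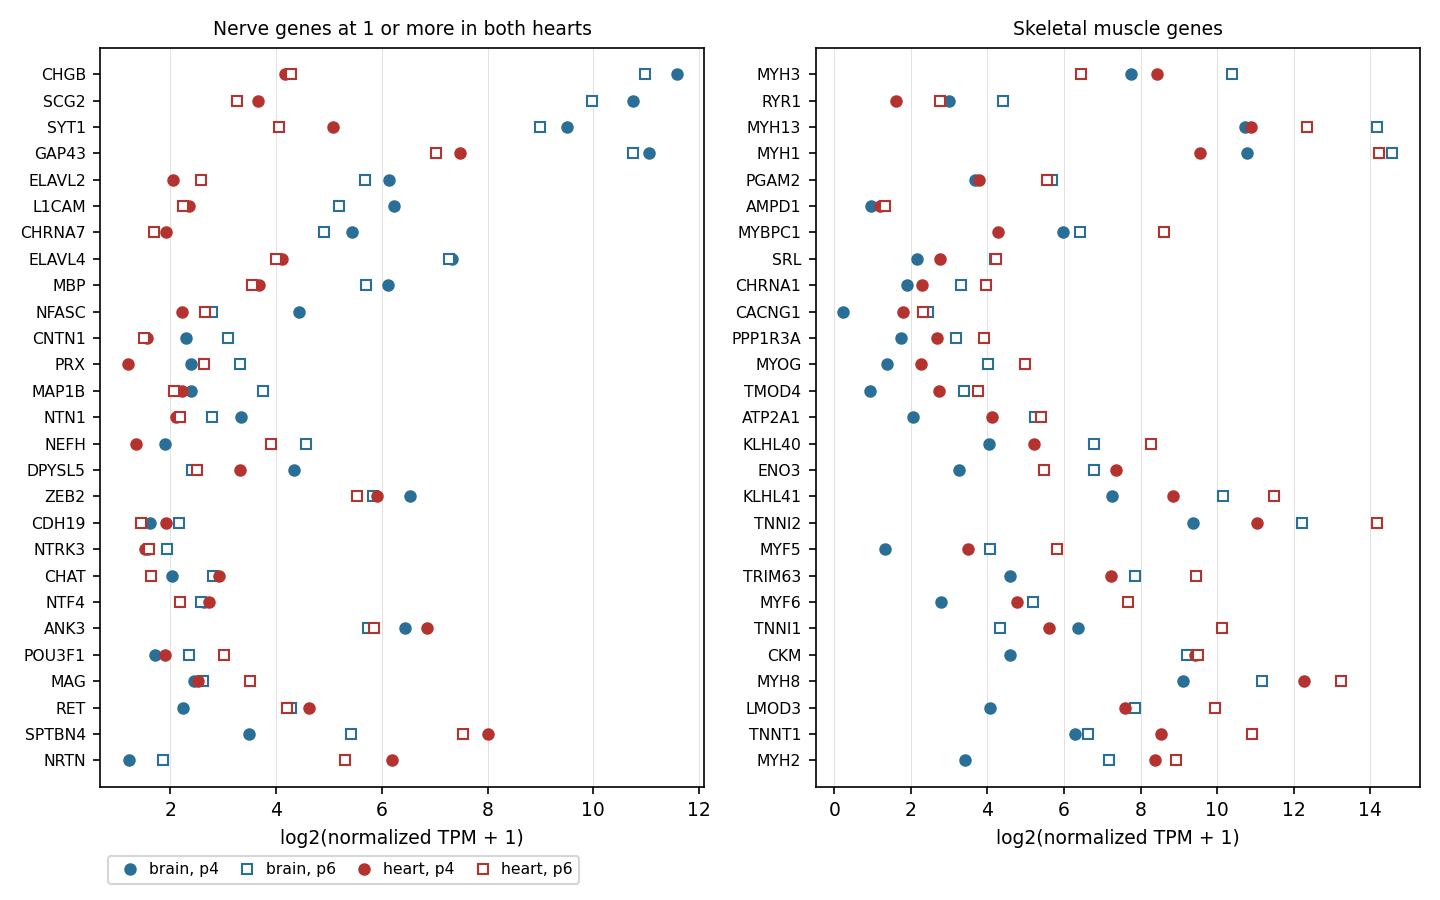
Log2(normalized TPM + 1) in the 4 columns (blue brain, red heart, filled p4, open p6) for 27 of the 28 nerve genes at 1 normalized TPM or more in both hearts (left) and the 27 skeletal muscle genes tested (right), each ordered by log2 fold change. On the left NRTN and SPTBN4 are the genes with both red points beyond both blue points and a call; on the right most open p6 points lie to the right of the filled p4 point of their organ.

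Skeletal muscle genes stood apart in the p6 columns of both organs. The 27 tested genes of this list held 0.723% of TPM in the p4 brain, 7.07% in the p6 brain, 1.13% in the p4 heart and 4.05% in the p6 heart. Their summed normalized level was 10.1 times higher in p6 than in p4 in brain and 4.98 times in heart, and 24 of the 27 were higher in p6 in both organs. MYH1, a fast skeletal myosin, stood at 1756 and 24491 in brain and 754 and 19211 in heart and was not called. TNNI2, the fast troponin I, stood at 666 and 4769 in brain and 2099 and 18438 in heart (−1.80 ± 0.25, adjusted p = 0.0110, 0.375 without the block). MYF6, a factor that drives skeletal muscle genes, stood at 5.86 and 35.2 against 26.6 and 204. Both p4 and p6 thus gave TNNI2 and MYF6 higher in heart within the animal, while the p6 brain exceeded the p4 heart.

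Across the table, 33 genes were at least 4 times higher in p6 than in p4 in both organs, on the scale of normalized TPM + 1, and higher in skin, where MYH1 averaged 53741 TPM, than in the p4 column of either organ. They include KCNJ11, CACNG6, GRIN3B, BCHE, NEFH, PFKM and the sarcomere genes ANKRD1 and MYOM2, and 9 are on the skeletal muscle list. Of the 33, 25 were called towards heart and none towards brain, against 9.14% and 12.7% of all genes tested. The genes were picked for a rise in p6 in both organs, which the block takes out, so this count is not independent of the choice. On the skeletal muscle list 10 of the 27 genes tested were called towards heart, against 11.1% of all symbols. Of these 10, 9 lost the call without the block. The part of skeletal muscle in these calls was not tested. The p6 brain and the p6 heart were also left out together, in a fit of the 12 other samples of all organs. That fit holds 1 brain and 1 heart, so its spread comes from gut, liver, lung and skin alone. The median log2 fold change in it was 0.56 for channel genes and 1.75 for transmitter genes. For energy genes it was −1.28 and for nerve genes 0.92. Of the defining markers of skeletal muscle, ACTA1, MYLPF, TNNT3, TNNC2 and CASQ1 have no gene of that symbol in the table.

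The cardiac sarcomere list was read beside it. Of 18 genes tested, 14 were higher in heart and none in brain (median −2.94), against 11.1% and 14.4% of all symbols. Members such as MYH7, TTN, MYOM2, ANKRD1 and SMPX lost the call without the block. MYH7, a slow myosin of heart and slow skeletal muscle, stood at 551 and 2531 in brain and 6968 and 17242 in heart (−3.21 ± 0.31, adjusted p = 0.00446, 0.0610 without the block). TNNI3 and MYL7, which in mammals belong to heart rather than skeletal muscle, stood at 18.3 and 6.06 and at 1.21 and 1.30 in the brains, so that the p6 brain held no more than 1.08 times the p4 level of either. NEBL, of the cardiac Z-disc, was higher in heart at 74.5 and 52.7 against 1332 and 645 (−3.87 ± 0.25).

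Blood was unevenly held as well. HBE1, a globin, stood at 22029 and 9060.1 normalized TPM in brain and 143442 and 206854 in heart (−3.61 ± 0.50, adjusted p = 0.0106), and ALAS2, the first enzyme of heme synthesis in red cells, at 429 and 236 against 3111 and 4787 (−3.60 ± 0.39). Both red cell genes tested held 3.02% and 1.21% of TPM in brain against 13.1% and 13.7% in heart. With fibroblasts and matrix, 3 of 9 genes were higher in heart and none in brain, COL3A1 at 27.0 and 91.5 against 1064 and 417. Endothelial genes went both ways: of 8 tested, 2 were higher in brain, 1 in heart and 5 were not called (median −0.03). Over all symbols 14.4% were higher in brain and 11.1% in heart. CLDN5, of the tight vessels of the brain, was higher in brain at 180.1 and 163 against 67.2 and 46.9. CDH5, the endothelial cadherin, was higher in heart at 2.52 and 1.90 against 7.01 and 7.81 (adjusted p = 0.04998, 0.0654 without the block). The part of these cells in the differences above was not tested.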

How the data were processed

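The values that the authors deposited are TPM per assembled gene. Per the study's methods and the submitters' processing notes, reads were trimmed with Cutadapt and Trimmomatic, aligned with bwa mem to a hybrid assembly of the animal p4, with 1 transcript, the longest, for each gene that had an annotation, and counted with featureCounts. How TPM was computed from those counts is not given in the sources used here, and TPM keeps no depth, so the number of reads behind a value is unknown. No genome was used and no sequence is shown.

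Here the 4 columns were scaled with size factors (median of ratios, 15338 genes) and analysed as log2(value + 1). All genes that reached 1 TPM in 2 or more of the 4 columns were tested in limma 3.58.1 under R 4.3.3 with a variance trend, brain minus heart, the animal as a block, two-sided, and p-values adjusted by Benjamini-Hochberg over all 15400 genes. Residual degrees of freedom were 1 and the prior gave a median of 4.53, so the variances were mostly shared across genes. The block follows the titles; the study's methods name none for its own tests. Across genes, p6 minus p4 in brain and in heart correlated at r = 0.230, and 0.228 without the muscle and red cell lists. With p6 minus p4 in skin, r was 0.050 for brain and 0.190 for heart. The heart difference correlated at 0.194 with p6 minus p4 in liver and −0.016 with p5 minus p4 there. In lung these were 0.059 and −0.029. Genes are not independent replicates, and which animal gave the second heart was not tested.

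A symbol carried by more than 1 assembled gene is represented by the most abundant of them over the 4 columns, and reads of paralogs fell as the alignment placed them. Lists are described by counts and medians, with no test of a list. The members, the gene lists and the tests were chosen with earlier results of these data known. Genes are named that are among the 8 largest called differences per direction, among the 3 largest called or 3 most abundant of a list, isoform partners, organ markers, or the 8 leading nerve genes of the hearts and muscle genes of the p6 columns. For the 8 largest differences, only genes with a symbol were taken, with both columns of an organ above both of the other. Genes on the skeletal muscle and red cell lists were passed over there. ANKRD1, CHAT, CHRNA1, CLDN11, CPLX1, ELAVL4, GAPDH, GPHN, GRIK3, GRIN1, KCNA5, KCNH2, KCNIP2, MAG, MYF6, MYOM2, MYRF, NEBL, NEFH, NTS, PENK, PPARGC1A, SMPX, TH, TTN and UGT8 fall outside this rule and were chosen after their values were seen. Some members that entered the counts are not reported here by name. No column was left out of the main fit.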

Additional observations from a re-analysis of the deposited data

Results flagged for a closer look

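ENO3, the muscle enolase, lay towards heart in p4 and towards brain in p6: brain minus heart was −4.11 on the log2 scale in p4 and 1.31 in p6. The gene that carries the symbol GAPDH, of glycolysis, did the same, with −2.46 in p4 and 1.71 in p6. The animals thus moved in opposite directions in the same contrast, and the difference between them was not tested for either gene, since each animal gives 1 pair.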

How the results depend on the processing

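With the replicate block the counts were 1955 and 1407, without it 1172 and 536; titles give the pairing, and a block by the sample list that calls the second heart p5, in a fit of all 14 samples, gave 1837 and 1066, against 2000 and 1271 by title. TPM as deposited shifted the median of all genes to 0.67 and gave 4465 higher in brain and 461 in heart, so that 90.6% of the calls lay in brain against 58.1%. The energy median was −0.08 there, close to 0 but well below that shift. Leaving out the p6 brain and p6 heart gave 1241 and 512, with 70.8% in brain, an alternative chosen after the data were seen. Without the block 68.6% of the calls lay in brain. Leaving out 1 sample in a fit without a block gave 0 to 861 higher in brain and 0 to 355 higher in heart. The counts were 0 and 0 without the p4 brain and 0 and 0 without the p6 brain, where limma gave 2283 and 3734 genes at an unadjusted p under 0.05. They were 861 and 355 without the p4 heart and 532 and 232 without the p6 heart. The lone sample is assumed there to vary like the other organ.

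The median of the channel genes (0.59) was 0.52 in the fit of 14 samples by title, 0.84 and 0.27 at a pseudocount of 0.1 and 5, 0.38 with no filter, 1.14 with TPM as deposited, 0.36 after quantile normalization, 0.67 in p4 alone and 0.55 to 0.70 with 1 sample left out. The transmitter median (1.65) was 2.15, 0.92, 1.17 and 2.26 under both pseudocounts, no filter and deposited TPM. The nerve median (1.05) was 1.45, 0.59, 0.62 and 1.66 under the same, 0.87 after quantile normalization, 1.33 in p6 alone and 1.09 to 1.45 with 1 sample left out. The energy median (−0.72) was −0.23 without the p4 brain and −1.19 without the p6 brain. The log2 fold change of BCHE (−1.56) lay between −3.31 and 0.19 with 1 sample left out. Of 131 named genes followed through these settings, 26 lost the call without the block and the block changed no other call among them. Quantile normalization shifted the median of all genes to −0.09. The causes of these shifts were not tested. The number of reads behind each value is unknown, so differences of genes near 0 are limited by the spread of log2(value + 1).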

Other observations

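In the heart samples GAD2 stood at 5.63 and 7.76 and VGF at 9.01 and 10.5 normalized TPM, while TH stood at 0.742 and 0.436 there. GAD2 and VGF were both called towards brain, and 80.4% of all genes tested reached 1 normalized TPM in both hearts. Whether neurons of these types lie in the heart was not tested. Of the 54 energy genes with a mean under 30 normalized TPM, 10 stood more than 1 higher on the log2 scale in the p6 brain than in the p4 brain and more than 1 lower in the p6 heart than in the p4 heart, against 1 of the 51 genes at or above 30 and 82 of 6634 symbols tested. They are NDUFB2, NDUFB4, ATP5J, SLC25A3, SLC25A5, IDH3A, SUCLG1, FH, ETFB and LDHB, named after their values were seen. SLC25A3, the phosphate carrier of mitochondria, stood at 2.62 and 21.1 in brain and at 43.7 and 9.49 in heart. FH, fumarase of the citric acid cycle, stood at 1.37 and 8.48 in brain and at 13.0 and 5.79 in heart. The values of the 10 genes were lowest in the p4 brain, except that IDH3A was lowest in the p6 heart. Whether the assembled gene that bears each symbol is the main copy in the animal was not tested.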
